A study of Homo sapiens with 28 samples.

Results

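RNA of AN3CA cells that carried an ARID1B construct with a deletion called Block13 (Block13del) was compared with RNA of the same cells carrying an empty vector. The libraries were taken by their labels, which gave 2 Block13del libraries and 4 empty vector libraries, 6 of the 28 in the series. AN3CA is a human endometrial carcinoma line, grown here in EMEM with serum and given no drug or other treatment. Every library in the series is polyadenylated RNA of this 1 line. Whether replicates were grown apart is not given in the labels, and a p-value here reflects the scatter among libraries, which may be technical. The labels give neither the residues that Block13 spans nor the promoter or vector that drives the construct. For reference, the full-length construct (ARID1B WT) and the ARID1B deletions Block9del and A457_G461del were used, with 2 libraries each. A further ARID1B deletion of the series, S320_G327del, was not used here.

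ARID1B and its close relative ARID1A are mutually exclusive subunits of the canonical BAF complex, a SWI/SNF machine that uses ATP to move nucleosomes and open enhancers. Each carries an ARID DNA-binding domain, a C-terminal region that contacts the rest of the complex, and long disordered stretches. Loss-of-function mutations of ARID1A are among the most common lesions of endometrial carcinoma, and cells that lose it come to rely on ARID1B.

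Libraries held 19.3 to 24.5 M reads on genes with Block13del and 16.6 to 21.6 M with the empty vector, against 16.6 to 27.9 M over the whole series. The libraries differed in how strictly reads kept their strand: the opposite strand of the gene took 96.9 to 97.3% of stranded reads with Block13del, 84.5 to 87.6% in empty vector replicates 1 and 2, and 98.3 to 98.4% in empty vector replicates 3 and 4. The empty vector replicates also fell into these pairs by expression. Counts differed by a chi-square of 82.4 to 90.03 per degree of freedom between libraries of different pairs, against 2.91 and 2.14 within them and 4.97 between the Block13del libraries. No empty vector library had the strand profile of Block13del, and the labels name no batch or preparation. The construct and whatever set the strand profile cannot be told apart in the main comparison. Each result is therefore given against all 4 empty vector libraries and, where it matters, against each pair alone. Markers of the labelled tissue were mixed. PAX8 and the hormone receptor genes ESR1 and PGR had no read in any of the 6 libraries, whereas the Müllerian patterning gene HOXA10 stood at 19.0 to 19.4 CPM with Block13del and 8.27 to 21.6 CPM with the empty vector. Of epithelial genes, CDH1 had 1 read with Block13del and 7 with the empty vector, and KRT18 stood at 12.9 to 14.5 CPM with Block13del and 10.6 to 13.01 CPM with the empty vector, while the intermediate filament gene VIM stood at 4324 to 4644 CPM with Block13del and 3787 to 6614 CPM with the empty vector. CPM are counts scaled to library size with TMM factors.

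ARID1B RNA stood at 888 and 878 CPM with Block13del, against 99.7, 104, 88.6 and 100 CPM in empty vector replicates 1 to 4. Both Block13del libraries lay far above all 4 controls, and the log2 fold change was 3.17 ± 0.07 (SE), with an adjusted p of 1.28e-16 in edgeR's two-sided quasi-likelihood test. The counts do not separate transcripts of the construct from those of the cell's own gene. Among the other ARID1B constructs the mean was 344 CPM with Block9del, 2236 CPM with A457_G461del and 3597 CPM with ARID1B WT, so ARID1B RNA differed between constructs. ARID1A RNA was 250 and 228 CPM with Block13del, against 272, 296, 300 and 287 CPM with the empty vector, a log2 fold change of -0.27 ± 0.09 (adjusted p = 0.0183).

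Of 14220 genes tested, 2712 were higher (19.1%) and 2875 lower (20.2%) with Block13del than with the empty vector at an adjusted p under 0.05. At least 2-fold changes were fewer: 333 genes higher (2.34%) and 547 lower (3.85%). A fit of the Block13del and empty vector libraries alone called far fewer genes at the same threshold, 389 higher and 399 lower. Both Block13del libraries lay outside the range of all 4 controls for 6035 genes (42.4%). A stricter count asked for the same sign of call in the strand-specific counts, in the counts without strand and against each empty vector pair alone. It kept 1948 rises (13.7%) and 1666 falls (11.7%), with 236 rises (1.66%) and 239 falls (1.68%) of at least 2-fold. Passing it was a condition for the largest rises and falls named below. Between the control pairs themselves, 4089 genes were higher (28.8%) and 4226 lower (29.7%) in replicates 3 and 4 than in replicates 1 and 2, in a fit that kept the pairs as separate groups.

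The 12 largest rises were of genes near silence in empty vector cells. They were DCX, VSTM2L, FOXP2, SEMA5B, RUNX2, ISLR, CACNG4, MMP2, SOST, COL16A1, ELN and ADORA1. The rule that chose them asked for both Block13del libraries above all 4 controls, so their levels are a description. In bulk RNA a gene read at such levels can come from a few cells with much RNA or from many with little, and these cannot be told apart.

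MMP2 encodes gelatinase A, a secreted protease that cuts collagen of basement membranes. It stood at 8.87 and 9.46 CPM with Block13del, against 0.0907, 0.180, 0.131 and 0.0557 CPM with the empty vector. All 4 controls sat close to 0 and both Block13del libraries close to each other. The log2 fold change was 6.24 ± 0.24 (adjusted p = 2.74e-13), and it was 6.03 against replicates 1 and 2 and 6.58 against replicates 3 and 4. ELN encodes elastin, the protein of elastic fibres. Its level was 7.19 and 10.9 CPM with Block13del, against 0.0907, 0.0899, 0.131 and 0.279 CPM with the empty vector, a log2 fold change of 5.95 ± 0.27 (adjusted p = 5.53e-12). COL16A1, a collagen that associates with fibrils, had 1.26 and 1.04 CPM with Block13del and 1 read in all 4 controls, an 88.0-fold difference with a 95% counting interval of 15.1 to 3546. ISLR, a secreted leucine-rich repeat protein, had 0.525 and 0.456 CPM with Block13del and no read in the controls, at least 12.6-fold higher against a floor of 3 counts over the group.

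Of 31 axon guidance and neuronal genes, 9 rose and 4 fell, with a median log2 fold change of -0.01, against 19.1% and 20.2% of all genes. Among the 12 largest rises, DCX encodes doublecortin, which binds microtubules in migrating neurons. It had 2.26 and 2.20 CPM with Block13del, 96 reads in all, and no read in any of the 4 controls, which makes it at least 57.5-fold higher (adjusted p = 1.87e-08). FOXP2, a forkhead transcription factor, had 2.73 and 2.82 CPM with Block13del and a single read in the controls, a 215.5-fold difference with an interval of 38.0 to 8583. VSTM2L had 6.35 and 6.56 CPM with Block13del, against 2 reads that both came from empty vector replicate 4, a 251-fold difference with an interval of 68.7 to 2079. SEMA5B, a semaphorin that steers axons, had 0.734 and 0.871 CPM with Block13del and no read in the controls, at least 21.0-fold higher. ADORA1, the adenosine A1 receptor, had 7.24 and 8.46 CPM with Block13del, against 0.0907, 0.225, 0.196 and 0.112 CPM with the empty vector, a log2 fold change of 5.62 ± 0.22 (adjusted p = 2.74e-13). CACNG4, an auxiliary subunit of calcium channels, had 0.682 and 0.207 CPM with Block13del and no read in the controls, at least 10.78-fold higher.

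RUNX2 is the factor that starts bone formation, and SOST encodes sclerostin, which bone cells secrete to block WNT signals. RUNX2 had 0.839 and 0.498 CPM with Block13del and no read in the controls, at least 16.8-fold higher (adjusted p = 8.69e-06). SOST had 0.525 and 0.249 CPM with Block13del and no read in the controls, at least 9.58-fold higher (adjusted p = 0.00155). These 2 genes rested on 28 and 16 reads. A fit of the Block13del and empty vector libraries alone left the RUNX2 call just outside the threshold (adjusted p = 0.0509).

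**Figure D1:**
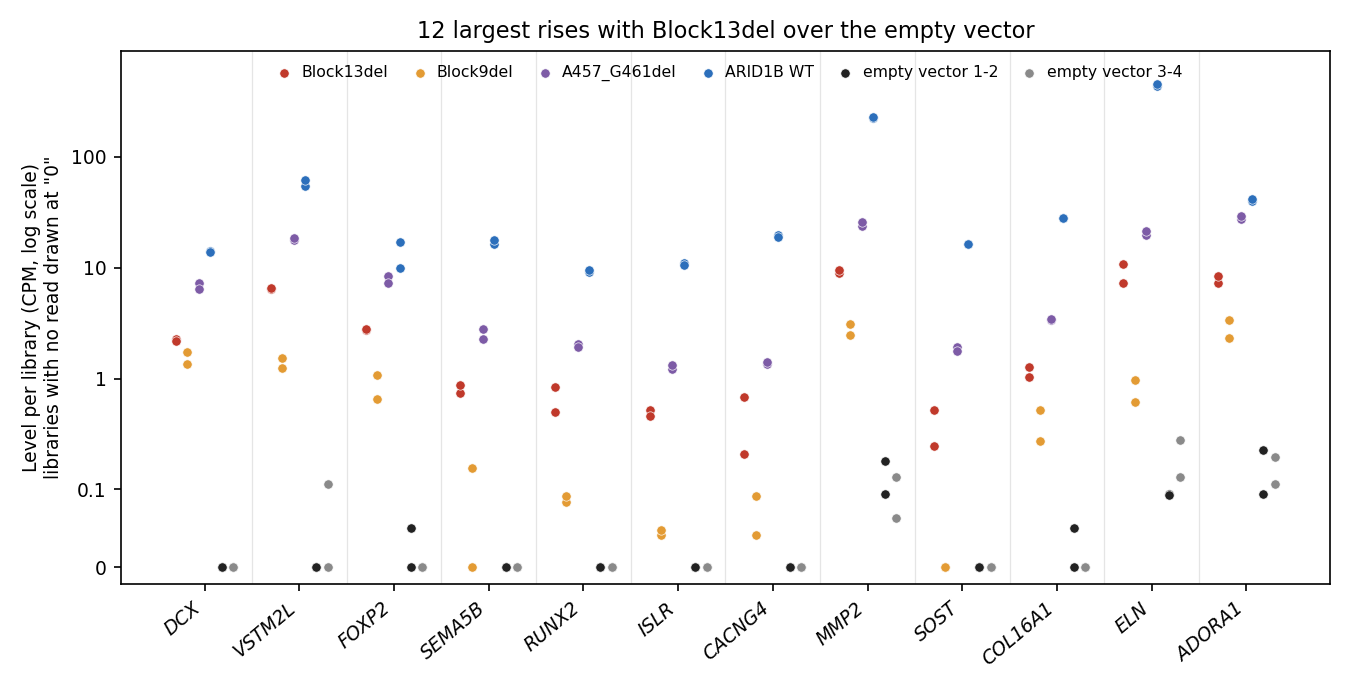
Level of the 12 genes with the largest rises in each library, in CPM on a log axis on which libraries without a read are drawn at 0; each point is 1 library of Block13del, Block9del, A457_G461del, ARID1B WT or the empty vector. Block13del lies above all empty vector libraries for each gene and its mean lies below those of A457_G461del and ARID1B WT, with MMP2 at 8.87 and 9.46 CPM against means of 24.7 CPM with A457_G461del and 227 CPM with ARID1B WT.

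In mean level these 12 genes were lowest with Block9del, then Block13del, then A457_G461del, and highest with ARID1B WT. The rule for naming asked for a minimum average level over all libraries, which the rarest of them reach only through groups in which they are high, so their place below ARID1B WT is partly set by the choice. For MMP2 the mean was 9.16 CPM with Block13del, 2.78 CPM with Block9del, 24.7 CPM with A457_G461del, 227 CPM with ARID1B WT and 0.114 CPM with the empty vector. For ELN it was 9.03 CPM with Block13del, 0.789 CPM with Block9del, 20.5 CPM with A457_G461del, 441 CPM with ARID1B WT and 0.148 CPM with the empty vector. The gap to full length varied between genes: Block13del was below ARID1B WT by a log2 fold change of -5.60 ± 0.17 for ELN but -2.37 ± 0.13 for ADORA1 and -2.64 ± 0.23 for DCX. The order follows that of ARID1B RNA among the constructs, and the part of that dose in these differences was not tested.

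Lists of matrix genes had members that rose and members that fell. Of 29 matrix glycoproteins and remodelling genes tested, 9 rose and 5 fell against the empty vector, where 19.1% of all genes rose and 20.2% fell, so the falls were near the background share. The median log2 fold change was 0.13, against -0.02 over all genes. Beside ELN, MMP2 and ISLR, the rises held LRRC15, a surface protein of matrix-producing cells (log2 fold change 4.49 ± 0.26), FBLN2, a fibulin of elastic fibres (2.14), LAMB1, a laminin chain of basement membranes (1.94 ± 0.07), and SPARC, a collagen-binding glycoprotein (1.39 ± 0.09). The falls held FN1, fibronectin (-0.89), and TIMP1, an inhibitor of metalloproteinases (-0.75). LAMB1 shows how tight such a rise could be. It stood at 31.4 and 30.7 CPM with Block13del, against 8.25, 8.32, 7.59 and 8.19 CPM with the empty vector.

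Of 21 collagens, 8 rose and 2 fell, against 19.1% and 20.2% of all genes. COL3A1, a fibrillar collagen of soft tissue, had 281 and 285 CPM with Block13del, against 124, 111, 191 and 197 CPM with the empty vector (log2 fold change 0.86 ± 0.15, adjusted p = 0.00017). COL6A2, a chain of microfibrillar collagen, had 68.4 and 75.1 CPM with Block13del, against 183, 190, 103 and 108 CPM with the empty vector (-1.03 ± 0.18, adjusted p = 0.000263). Both groups stayed apart for these 2 genes, although the control pairs differed as well. Of 16 integrins, 5 rose and 2 fell, not far from those shares. ITGB5, a chain of vitronectin receptors, had 114 and 123 CPM with Block13del, against 47.5, 49.8, 57.0 and 57.3 CPM with the empty vector (1.17 ± 0.06, adjusted p = 6.13e-11), and ITGA3, a laminin receptor chain, fell (-0.77 ± 0.18, adjusted p = 0.00205). TNC, or tenascin, taken after its values were seen, had 7.45 and 7.30 CPM with Block13del, against 7.66, 6.74, 0.327 and 0.502 CPM with the empty vector. It lay inside the controls because replicates 1 and 2 carried as much of it as Block13del did.

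Against ARID1B WT most members of these lists were lower. The ARID1B WT libraries had 98.4 to 98.5% of stranded reads on the opposite strand, against 96.9 to 97.3% with Block13del. The construct and whatever set the strand profile therefore cannot be told apart here either. Over all genes 3040 were higher (21.4%) and 3129 lower (22%) with Block13del than with full length. Of the 29 matrix genes, 23 were lower and 3 higher, with a median log2 fold change of -1.24. Of the 21 collagens 14 were lower and 2 higher, of 16 integrins 9 were lower and none higher, and of 31 axon guidance and neuronal genes 19 were lower and 2 higher. Of 14 smooth muscle contractile genes 10 were lower and none higher.

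The 12 largest falls against the empty vector, chosen by the same rule, were INHBE, LAMP3, GDF15, AKNA, SLC6A9, TRIB3, SLC7A11, CHAC1, ADM2, NUPR1, ASNS and ASS1, and several are known targets of ATF4, a bZIP factor that cells make when amino acids run short or the endoplasmic reticulum is loaded with unfolded protein. ATF4 binds composite elements with the letters TGATGNAA together with C/EBP partners. RefSeq promoters (250 bases before to 50 after the start, GRCh38.p14) were found for 29 of the 32 genes on an ATF4 and unfolded protein response list, and 5 of these (17.2%) held TGATGNAA on either strand, against 1024 of all 27305 promoters (3.75%). The list was drawn up around ATF4, so its share may partly be set by that choice. For the 12 largest falls, promoters were found for 8, and 1 of them (12.5%) held the element. A match describes letters only. All 5 genes of the list with the element fell with Block13del. The windows are shown, with the element in capitals, for the 4 whose element lies before the start, which leaves out SLC7A1.
CHAC1 (chr15:40953232-40953299, plus strand): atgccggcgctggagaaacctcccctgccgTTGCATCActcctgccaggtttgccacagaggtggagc
FGF21 (chr19:48755440-48755507, plus strand): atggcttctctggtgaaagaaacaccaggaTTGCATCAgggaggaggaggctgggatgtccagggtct
HERPUD1 (chr16:56931936-56932003, plus strand): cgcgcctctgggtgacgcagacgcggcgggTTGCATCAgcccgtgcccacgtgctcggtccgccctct
SLC1A5 (chr19:46784874-46784941, minus strand): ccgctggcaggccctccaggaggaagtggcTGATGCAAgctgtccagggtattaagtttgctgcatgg

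Of the 32 genes of that list, 29 fell and none rose against the 4 empty vector libraries (20.2% and 19.1% of all genes), with a median log2 fold change of -1.30. The remaining 3, CRELD2, MANF and HSP90B1, act in or are secreted from the endoplasmic reticulum, and they were higher with Block13del than in replicates 1 and 2 and lower than in replicates 3 and 4. Against replicates 1 and 2 alone, 28 fell and 3 rose (backgrounds 32% and 31.5%), and against replicates 3 and 4 alone, 31 fell and none rose (21.7% and 22.5%). ATF4 RNA itself was 241 and 246 CPM with Block13del, against 446, 443, 688 and 663 CPM with the empty vector, a log2 fold change of -1.20 (adjusted p = 2.73e-06).

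ASNS, the asparagine synthetase, had 130 and 133 CPM with Block13del, against 755, 730, 811 and 785 CPM with the empty vector. The controls agreed across pairs and the Block13del libraries lay far below them, with a log2 fold change of -2.55 ± 0.06 (adjusted p = 1.28e-16). CHAC1, of the window above, degrades glutathione. Its level was 7.24 and 8.09 CPM with Block13del, against 72.3, 74.4, 56.7 and 59.8 CPM with the empty vector (-3.10 ± 0.12, adjusted p = 2.19e-13). NUPR1, a small stress-response nuclear protein, had 10.07 and 10.83 CPM with Block13del, against 78.6, 75.6, 77.4 and 78.7 CPM with the empty vector (-2.89 ± 0.11, adjusted p = 4.51e-13). Both pairs of controls stood far above Block13del for these 3 genes.

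SLC7A11, the cystine importer, had 29.2 and 25.6 CPM with Block13del, against 311, 308, 166 and 166 CPM with the empty vector (-3.12 ± 0.25, adjusted p = 1.71e-08). TRIB3, a pseudokinase that ATF4 induces, had 24.81 and 23.98 CPM with Block13del, against 397, 379, 94.2 and 85.9 CPM with the empty vector (-3.30 ± 0.50, adjusted p = 4.59e-05). GDF15, a secreted stress cytokine, had 5.77 and 6.76 CPM with Block13del, against 149, 147, 18.4 and 15.4 CPM with the empty vector (-3.72 ± 0.74, adjusted p = 0.000642). For these 3 genes the groups did not overlap, but the size of the fall depended on the control pair: for GDF15 it was -4.55 against replicates 1 and 2 and -1.42 against replicates 3 and 4. In a fit of these 6 libraries alone, GDF15, TRIB3 and LAMP3 missed the threshold (adjusted p = 0.123, 0.0708 and 0.0789). Their log2 fold changes there were -3.71, -3.29 and -3.72. That fit called 17 of the 32 list genes lower, and 399 of all genes. INHBE, an inhibin chain, had 0.577 and 0.290 CPM with Block13del, against 17.5, 15.6, 6.87 and 6.13 CPM with the empty vector (-4.78 ± 0.48, adjusted p = 3.88e-07).

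**Figure D2:**
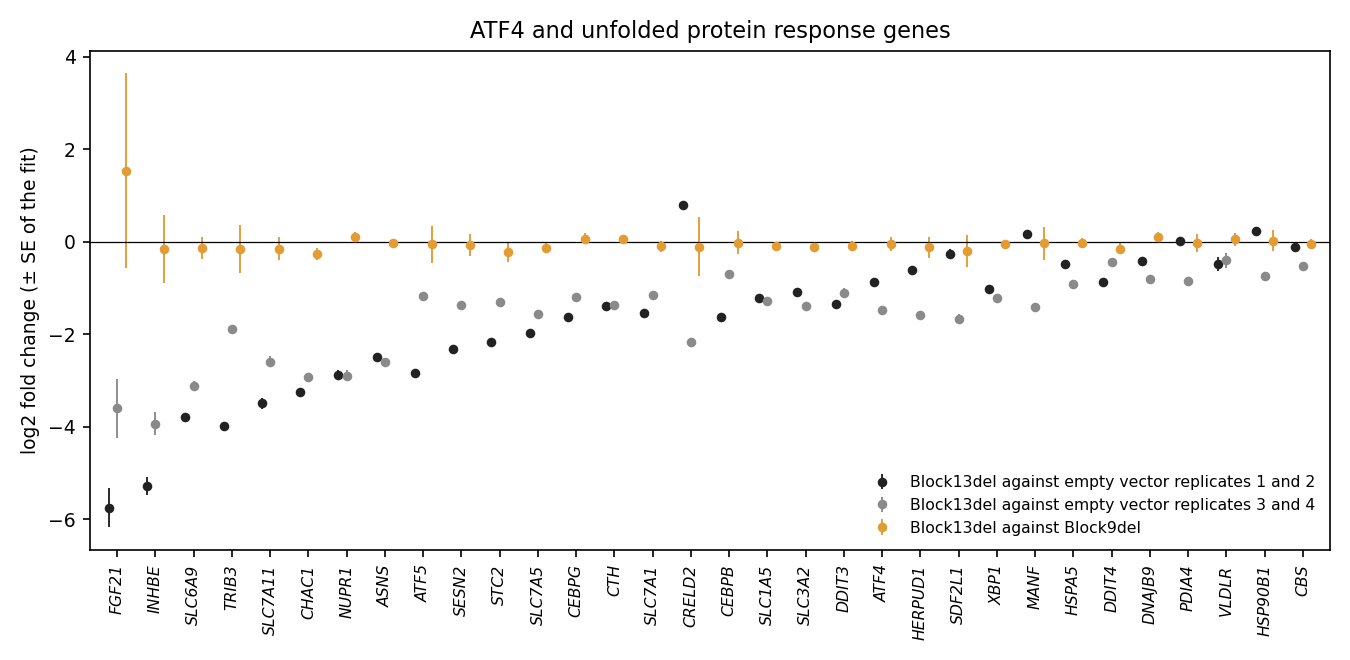
Log2 fold change of 32 ATF4 and unfolded protein response genes (points, with bars of 1 SE of the fit) for Block13del against empty vector replicates 1 and 2, against replicates 3 and 4 and against Block9del. Both control pairs place nearly all genes below 0, with ASNS at -2.50 and -2.60, whereas the points against Block9del lie around 0 (median -0.07).

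The same list was compared with Block9del and A457_G461del. Between Block13del and Block9del, 0 of the 32 genes were called in either direction, and the median difference was -0.07 on the log2 scale. Over all genes 67 were higher (0.471%) and 0 lower (0.0%) with Block13del than with Block9del. Against A457_G461del 4 of the 32, ASNS, SLC7A5, SLC7A1 and SLC1A5, were higher with Block13del and none lower. Over all genes 1.89% were higher and 3.59% lower there, so that none lower is near the background. For ASNS the mean was 131 CPM with Block13del, 135 CPM with Block9del, 108 CPM with A457_G461del and 390 CPM with ARID1B WT. Against ARID1B WT, 26 of the 32 were lower with Block13del and none higher. The constructs and whatever set the strand profile of these libraries cannot be told apart for this fall against the empty vector.

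Enzymes of serine, glycine and folate supply, many of which ATF4 also drives, fell with the list. Of 21 tested, 11 fell and 3 rose, against 20.2% and 19.1% of all genes. PHGDH, the first enzyme of serine synthesis, had 191 and 213 CPM with Block13del, against 549, 517, 629 and 662 CPM with the empty vector (log2 fold change -1.54 ± 0.09, adjusted p = 1.32e-10). PSAT1, the next enzyme, had 182 and 181 CPM with Block13del, against 565, 582, 504 and 504 CPM with the empty vector (-1.57 ± 0.06, adjusted p = 2.2e-13). MTHFD2, the mitochondrial folate enzyme, fell by the same amount (-1.57 ± 0.08, adjusted p = 1.23e-11). The groups did not overlap for these 3 genes. Among those that rose was TYMS, which makes thymidylate for DNA. Between Block13del and Block9del no gene of the list was called, where 0.471% of all genes were, so that none is near the background.

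Cell cycle genes rose. Of 45 tested, 35 were higher and 1, CDC25C, was lower with Block13del, against 19.1% and 20.2% of all genes, with a median log2 fold change of 0.60. CDK1, the kinase that drives entry into mitosis, had 158 and 144 CPM with Block13del, against 95.3, 89.0, 94.0 and 88.7 CPM with the empty vector (0.72 ± 0.06, adjusted p = 1.51e-08). CCNE2, a cyclin of the start of S phase, had 24.8 and 24.6 CPM with Block13del, against 5.26, 5.35, 13.15 and 13.04 CPM with the empty vector (1.46 ± 0.24, adjusted p = 0.000116). KIF11, a motor of the mitotic spindle, had 338 and 303 CPM with Block13del, against 146, 141, 212 and 233 CPM with the empty vector (0.81 ± 0.14, adjusted p = 0.000134). Block13del lay above all controls for these 3 genes, but only for CDK1 did the control pairs agree.

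The size of the cell cycle rise rested on the controls. Against replicates 1 and 2, 44 of the 45 rose (median 0.96), where 31.5% of all genes rose. Against replicates 3 and 4, 33 rose and 4 fell (median 0.28), where 22.5% and 21.7% of all genes did. The 4 that fell were CDC6, CDT1, UBE2C and CDC25C, of which CDC6 and CDT1 license origins of replication. CDC6 had 115 and 112 CPM with Block13del, against 35.0, 33.2, 131 and 132 CPM with the empty vector, so that Block13del lay between the pairs. The control pairs themselves differed in 44 of the 45, all higher in replicates 3 and 4, where 28.8% of all genes were higher. A fit of the 6 libraries alone called 2 of the 45, where 389 of all genes rose and 399 fell. Between Block13del and Block9del no gene of the list was called (median -0.06), whereas against ARID1B WT 42 of the 45 were higher and none lower (median 0.97).

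**Figure D3:**
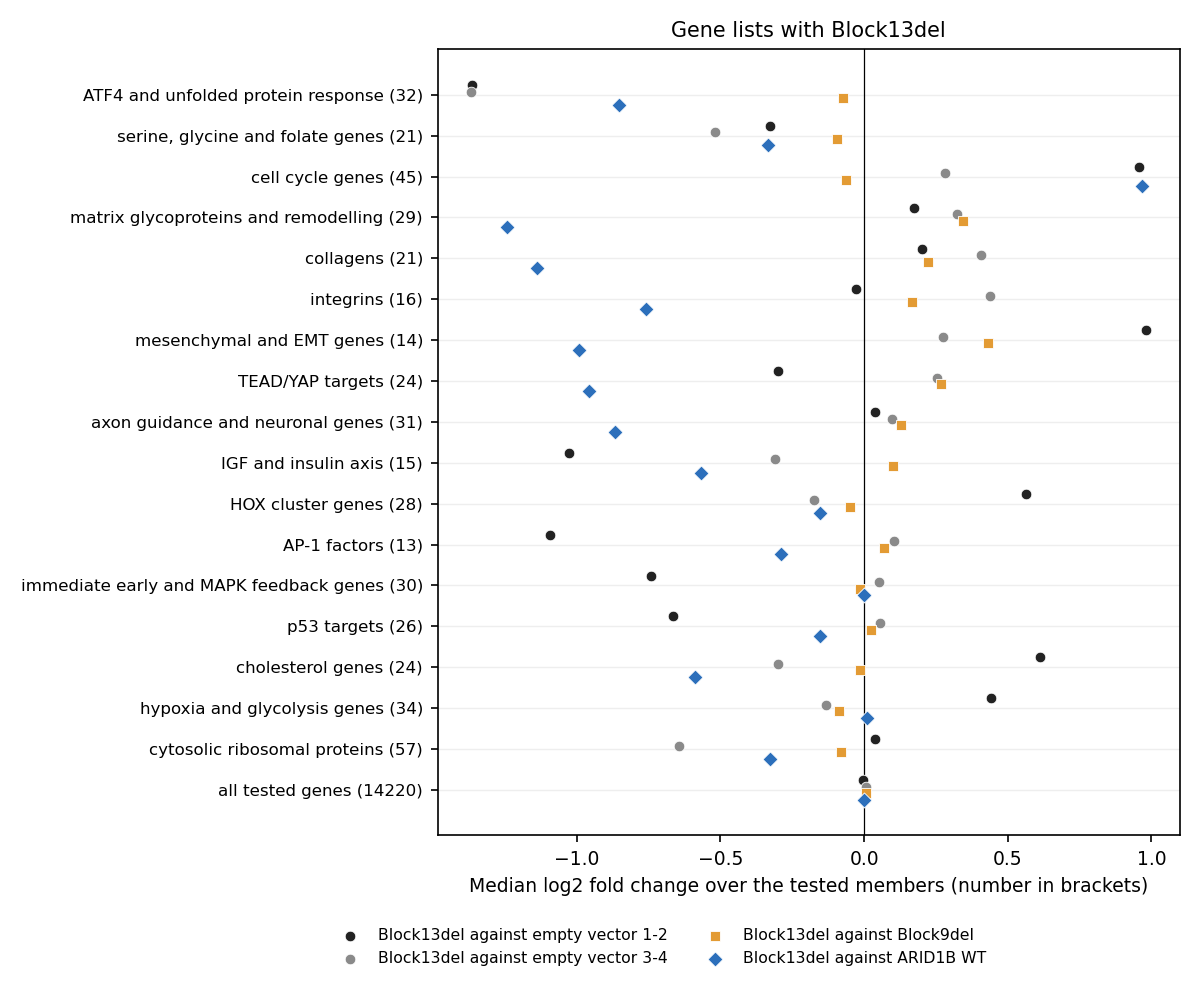
Median log2 fold change over the tested members of 17 gene lists and of all genes, for Block13del against empty vector replicates 1 and 2, empty vector replicates 3 and 4, Block9del and ARID1B WT. The ATF4 list lies at -1.37 against either control pair, whereas cholesterol genes (0.61 and -0.30), HOX genes (0.56 and -0.17) and AP-1 factors (-1.09 and 0.10) change sign between the pairs.

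Several lists gave different answers with each control pair. Over all genes, 31.5% rose and 32% fell against replicates 1 and 2, and 22.5% rose and 21.7% fell against replicates 3 and 4. Some of the smaller counts that follow are near or under these shares. Cholesterol synthesis and uptake genes had 22 rises and 1 fall among 24 against replicates 1 and 2, but no rise and 18 falls against replicates 3 and 4. Cytosolic ribosomal proteins had 22 rises and 11 falls among 57 against replicates 1 and 2, but no rise and 57 falls against replicates 3 and 4. HOX genes had 18 rises and 6 falls among 28 against replicates 1 and 2, but no rise and 8 falls against replicates 3 and 4. In the same way p53 targets had 21 falls and 2 rises among 26 against the first pair, but 5 falls and 9 rises against the second. AP-1 factors had 12 falls and no rise among 13 against the first pair, but 5 falls and 4 rises against the second. None of these 5 lists had a member called between Block13del and Block9del, where 0.471% of all genes were called, so that none is near the background.

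Among HOX genes, HOXB9 fell against both pairs. It had 27.2 and 27.9 CPM with Block13del, against 86.1, 85.7, 57.5 and 62.0 CPM with the empty vector (log2 fold change -1.41 ± 0.13, adjusted p = 1.05e-07). Of 15 genes of the IGF and insulin axis, 8 fell and 2 rose, against 20.2% and 19.1% of all genes. INSR, the insulin receptor, had 17.5 and 16.6 CPM with Block13del, against 29.9, 28.6, 22.6 and 21.2 CPM with the empty vector (-0.59 ± 0.12, adjusted p = 0.000652), and GRB10, an adaptor that dampens that receptor, fell as well (-1.68 ± 0.23, adjusted p = 2.08e-05). Both groups were apart for each of these genes.

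Of 28 BAF subunits tested, 7 rose and 5 fell, ARID1B itself included, near the 19.1% and 20.2% of all genes, and apart from it no log2 fold change exceeded 0.61 in size. SMARCA2, an ATPase of the complex, had 34.7 and 31.4 CPM with Block13del, against 53.04, 49.27, 48.4 and 50.9 CPM with the empty vector (-0.61 ± 0.07, adjusted p = 9.66e-07). SMARCA4, the alternative ATPase, had 444 and 464 CPM with Block13del, against 341, 347, 450 and 467 CPM with the empty vector, and was not called (0.18 ± 0.09, adjusted p = 0.137). ARID2 of the PBAF form (0.43 ± 0.10) and SS18 (0.40 ± 0.09) rose, and the GLTSCR1 and GLTSCR1L subunits of the non-canonical form fell (-0.45 ± 0.10 and -0.50 ± 0.09). ARID1B was the sole subunit called between Block13del and Block9del, where 0.471% of all genes were called.

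Markers of other cell types were read as summed levels. The summed level of 15 leukocyte markers was 2.89 to 3.07 CPM with Block13del and 1.995 to 3.27 CPM with the empty vector, with 6 markers at 0 in all 6 libraries. The endothelial sum was 46.3 to 52.8 CPM with Block13del and 60.6 to 70.6 CPM with the empty vector, nearly all of it EGFL7. The fibroblast sum was 2545 to 2693 CPM with Block13del and 2481 to 3379 CPM with the empty vector, mostly COL1A2, with 5 of 12 markers at 0 in all 6 libraries, the defining genes DCN and LUM among them. Of the 5 fibroblast markers tested, COL1A1, COL3A1, PDGFRA and PDGFRB rose and none fell, against 19.1% and 20.2% of all genes. The median log2 fold change was 0.83, and all 5 were lower than with ARID1B WT. Only 2 of the rises held in every strand and control setting. Against replicates 1 and 2, 4 rose and 1 fell (31.5% and 32% of all genes). Against replicates 3 and 4, 2 rose and none fell (22.5% and 21.7%). COL1A1 overlapped between the groups, at 0.997 to 1.58 CPM with Block13del and 0.390 to 1.18 CPM with the empty vector. COL1A1 and COL3A1 are themselves collagens, so these markers are not separate from the matrix genes. Their part in the matrix rises was not tested.

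The comparison with Block9del, made within 1 set of libraries of like strand profile (96.7 to 97.9% on the opposite strand), called 67 genes higher with Block13del and 0 lower in edgeR. At an unadjusted p under 0.05 there were 485 higher (3.41%) and 121 lower (0.851%), and DESeq2 called 81 higher and 1 lower. The differences ranged from 0.29 to 4.61 on the log2 scale with a median of 1.42. With ARID1B itself set aside, 66 genes were left.

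EDN2, which encodes the vessel-constricting peptide endothelin 2, showed the largest difference by fitted value. It had 1.05 and 1.20 CPM with Block13del, against 1 read in each Block9del library, a 27.7-fold difference with an interval of 7.27 to 235. ELN had 7.19 and 10.9 CPM with Block13del, against 0.969 and 0.608 CPM with Block9del (log2 fold change 3.50 ± 0.24, adjusted p = 3.97e-08). LRRC15 had 4.93 and 3.53 CPM with Block13del, against 0.659 and 0.304 CPM with Block9del (3.08 ± 0.25, adjusted p = 5.14e-07). The libraries of both groups were apart for all 3 genes, although replicates of Block13del differed by up to 1.5-fold for ELN. SEMA5B (3.22 ± 0.54) and ISLR, with an 11.9-fold difference and an interval of 2.90 to 104, completed the 5 that the rule for named genes took. CALHM2 lay under the minimum average level of that rule. It had 0.734 and 0.664 CPM with Block13del, against 0.0388 and 0.0435 CPM with Block9del, the same levels there as EDN2 with its 1 read in each library. Its fitted log2 fold change was 3.91 ± 0.77 (adjusted p = 0.0178), without a counting interval.

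Further genes of the 67 have parts in adhesion and the matrix: LAMB1 (0.62), SPARC (0.49), MMP2 (1.72), LOXL2, which cross-links collagen and elastin (0.60), ITGA5, the fibronectin receptor chain (1.95), and ITGB5 (0.54). Of the 29 matrix genes 7 were called higher, and of the 16 integrins 2, against 0.471% of all genes. Others were factors or signals: RUNX2 (2.91 ± 0.56, adjusted p = 0.0221), WNT4 (2.33 ± 0.37, adjusted p = 0.00245), and ANKRD1, a target of the co-activator YAP (1.6 ± 0.23, adjusted p = 0.000934). At the abundant end stood CAP2 (0.29), ANXA2 (0.33) and ADAM9 (0.38).

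AP-1 factors open many enhancers together with BAF, and the letters of their site, TGANTCA, were looked up on both strands. RefSeq promoters were found for 50 of the 67 genes, and 9 of them (18.0%) held it, against 2158 of all 27305 promoters (7.90%). Other sites were scanned in the same promoters. Of the 50, 8 held the TEAD site GGAATG, against 3872 of all 27305 (14.2%). The RUNX site TGTGGT was in 3, against 3593 of all (13.2%), and TGATGNAA was in 3, against 1024 of all (3.75%). The differences in share were not tested. Windows around the AP-1 site are shown for 5 genes that differed between Block13del and Block9del, with the letters of the site in capitals. Of the AP-1 factors themselves, 0 of 13 were called there.
RUNX2 (chr6:45328080-45328113, plus strand): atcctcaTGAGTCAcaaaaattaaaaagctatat
LRRC15 (chr3:194369765-194369811, minus strand): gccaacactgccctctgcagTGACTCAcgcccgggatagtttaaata
LAMB3 (chr1:209651415-209651461, minus strand): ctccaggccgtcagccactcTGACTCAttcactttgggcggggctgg
ANKRD1 (chr10:90921256-90921302, minus strand): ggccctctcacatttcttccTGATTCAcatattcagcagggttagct
ANXA2 (chr15:60398087-60398133, minus strand): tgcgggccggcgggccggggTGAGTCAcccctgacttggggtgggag

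The same 67 genes were then read in a comparison that shares no library with the comparison that chose them. All libraries entered the fit, however, so these also helped set the filter and the spread behind the choice. ARID1B itself is among the 67. ARID1B WT was set against empty vector replicates 3 and 4, and 1032 genes rose at least 2-fold there (7.26% of all tested). All 67 were among them, which is 100% of the 67 and 6.49% of the 1032. The comparisons that follow use the Block13del libraries that chose the genes and are descriptions. The mean with Block13del was below the mean with A457_G461del for 66 of the 67, and 63 were called lower. The exception by mean was CALHM2, a calcium homeostasis modulator, with 0.699 CPM with Block13del and 0.479 CPM with A457_G461del. All 67 were called lower with Block13del than with ARID1B WT, with a median log2 fold change of -2.45, against -1.18 for A457_G461del. Against the empty vector 65 were called higher.

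**Figure D4:**
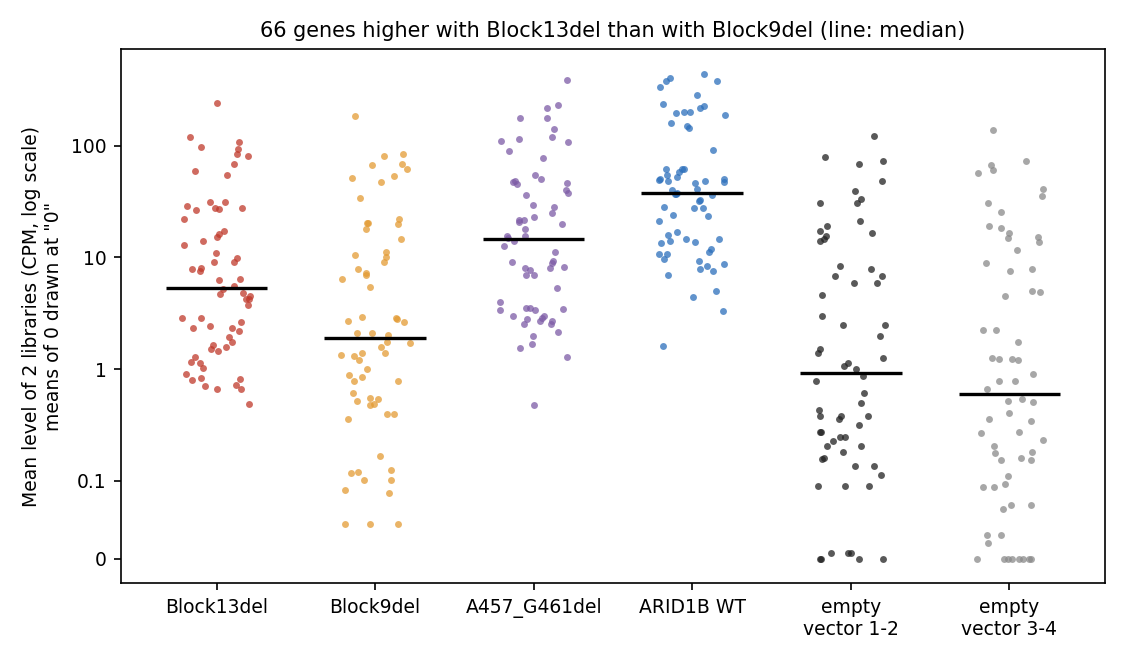
Mean level of the 66 genes other than ARID1B that were higher with Block13del than with Block9del, in CPM on a log axis with means of 0 drawn at 0; each point is 1 gene and the line is the median of each group. Block13del lies between Block9del, which chose the genes, and A457_G461del, below which 66 of all 67 genes fall.

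Against A457_G461del, a deletion of a few residues by its label, Block13del had 269 genes higher (1.89%) and 510 lower (3.59%). Of the 510, 489 (95.9%) were higher with ARID1B WT than in empty vector replicates 3 and 4, where 23.6% of all genes were, and 489 is 14.6% of those 3350 genes. Of the 269, 246 (91.4%) were lower with ARID1B WT, where 28.5% of all genes were, and 246 is 6.08% of those 4049. These comparisons share no library, although all 28 libraries entered each fit. At least 2-fold differences ran mostly 1 way, with 4 genes higher (0.0281%) and 114 lower (0.802%).

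CD44, a receptor for hyaluronan, led the genes that were lower. It had 1 read in the Block13del libraries together, against 0.652 and 0.588 CPM with A457_G461del, a 26.7-fold difference with an interval of 4.45 to 1089. Against ARID1B WT, with 15.3 and 15.0 CPM, the difference was 653-fold with an interval of 117 to 25840. With the empty vector 1 library had a single read, so this gene did not respond detectably to Block13del at this depth. PLAC8 had 0.262 and 0.249 CPM with Block13del, against 1.55 and 2.12 CPM with A457_G461del (log2 fold change -2.82 ± 0.33, adjusted p = 2.34e-05). RGS4, a brake on G protein signals, had 0.577 and 0.373 CPM with Block13del, against 2.04 and 2.78 CPM with A457_G461del (-2.36 ± 0.35, adjusted p = 0.000299). Neither PLAC8 nor RGS4 was called against the empty vector.

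Other genes were higher with Block13del. METTL7B had 8.34 and 9.63 CPM with Block13del, against 5.01 and 5.05 CPM with A457_G461del (log2 fold change 0.84 ± 0.12, adjusted p = 0.000231). ARC, an immediate early gene of neurons, had 19.4 and 21.8 CPM with Block13del, against 12.5 and 12.9 CPM with A457_G461del (0.70 ± 0.09, adjusted p = 0.000113). PRLR, the prolactin receptor, had 5.67 and 4.98 CPM with Block13del, against a single read with ARID1B WT, a 208-fold difference with an interval of 37.0 to 8253. Against the empty vector PRLR had no steady direction: the control levels were 13.6, 14.5, 5.56 and 4.91 CPM, so that Block13del lay below replicates 1 and 2 and close to replicates 3 and 4. DKK1, a secreted WNT inhibitor, had 5.25 and 6.64 CPM with Block13del, against 0.769 and 0.614 CPM with ARID1B WT (3.11 ± 0.24, adjusted p = 4.57e-09). MAGEC1 and MAGEC2, cancer-testis antigens of near-identical families whose reads the counting may split, were also higher with Block13del than with ARID1B WT (3.43 ± 0.48 and 4.97 ± 0.68).

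How much of the full-length response Block13del carried was asked with no control library in common: genes were chosen with ARID1B WT against empty vector replicates 3 and 4 and read with Block13del against replicates 1 and 2. The control pairs differ, so a gene chosen against a pair in which it is low can stand higher in the other pair. That lowers its reading with Block13del, and for genes chosen as lowered it is the reverse. How far this matters was not tested. Of the 1032 genes up at least 2-fold, 348 (33.7%) were called up and 185 (17.9%) down with Block13del, against 31.5% and 32% of all genes in that comparison. At least 2-fold rises made up 21.7% of them (224 genes), against 4.90% of all genes. The median log2 fold change was 0.30 with Block13del and 2.64 with ARID1B WT, and it was 0.27 and 2.30 with genes without reads in a group set to their bound. Of the 213 genes (1.5% of all tested) down at least 2-fold with ARID1B WT, 67 (31.5%) were down and 72 (33.8%) up with Block13del, with a median of 0.14.

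With the control pairs exchanged, which carries the same limit, the picture for the genes that rose was much the same. Of 1217 genes up at least 2-fold with ARID1B WT, 367 (30.2%) were up and 152 (12.5%) down with Block13del, against backgrounds of 22.5% and 21.7%, with a median of 0.32. Of 939 genes down at least 2-fold, 148 (15.8%) were down and 127 (13.5%) up with Block13del, with a median of 0.03. Neither reading placed more of the lowered genes below than their background share.

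**Figure D5:**
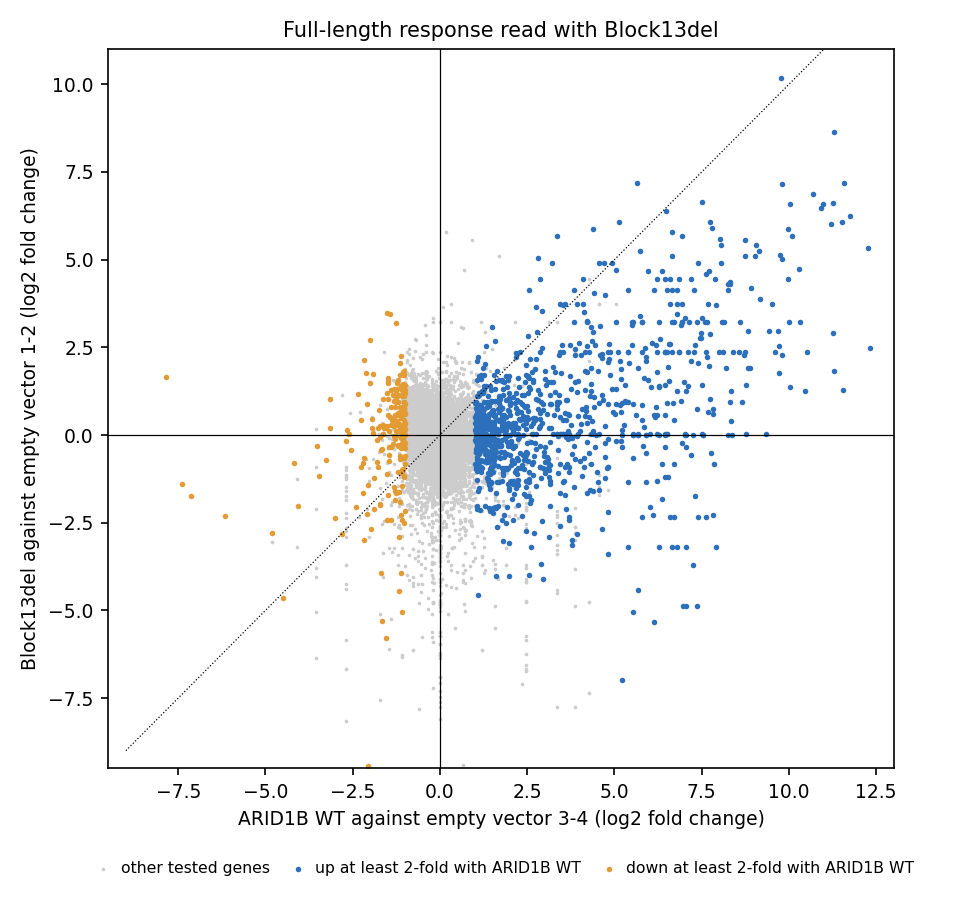
Log2 fold change of each tested gene with ARID1B WT against empty vector replicates 3 and 4 (x axis) and with Block13del against replicates 1 and 2 (y axis); blue and orange mark the 1032 genes up and the 213 genes down at least 2-fold with ARID1B WT, and the dotted line marks equality. Most blue points lie below the line, with a median of 2.64 on the x axis and 0.30 on the y axis.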

How the data were processed

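RNA-seq counts were deposited by the authors as 1 table per library with whole-number read counts per gene, without regard to strand, on the gene strand and on the opposite strand, per the file layout. STAR 2.5.2b, Bowtie2 2.29, bcl2fastq and the hg19 build are named, without roles, per the submitters' processing notes, and the gene annotation is not given in the sources used here. Reads that named no gene, 21.6 to 36.3% of each library, stayed out of library sizes and tests. Opposite-strand counts of all 28 libraries in 13 groups were fitted together in edgeR 4.0.16 (R 4.3.3) with filterByExpr, TMM factors and the two-sided quasi-likelihood test, and 14220 of 26346 genes were tested. P-values were adjusted by Benjamini-Hochberg over all tested genes and called under 0.05. Every adjusted p in the text is of this kind. SE is the log2 fold change divided by the square root of F, and for genes near 0 it can fall below counting error. Values against 1 control pair come from a fit in which empty vector replicates 1 and 2 and replicates 3 and 4 were separate groups. For a group without reads the fold is a lower bound, with 3 counts set in for the whole group. Folds on 1 to 3 reads carry an exact 95% interval, which covers counting error only. CALHM2 against Block9del is given by its fitted value alone.

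The members, the 35 gene lists (987 of 988 entries found) and the rule for named genes were chosen with earlier results of these data known. The rule took the 12 largest rises and falls whose average log2 CPM reached 1, with no overlap and the same call in every control and strand setting, the 5 largest each way against each other construct, and up to 5 called members per list. Other genes were named after their values were seen, among them TNC, FN1, TIMP1, CDC6, CDT1, UBE2C, CDC25C, LOXL2, CAP2, ANXA2, ADAM9, LAMB3, CALHM2, FBLN2, ATF4, FGF21, HERPUD1, TYMS, SLC7A5, SLC7A1, CRELD2, MANF and HSP90B1. On simulated counts with 200 changed genes for Block13del against the empty vector, the test recovered 156 (78%) with 7 false calls among 13788 genes. The simulation gave all libraries the same mean per gene apart from those changes, without the difference between control pairs. Its rates therefore do not carry over to the real comparison. DESeq2 1.42.0, other scalings, filters, samples and controls were tried as alternatives. Promoter sequences are RefSeq's on GRCh38.p14.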

Additional observations from a re-analysis of the deposited data

Results flagged for a closer look

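LAMB1, a laminin chain, had an unusual library among the controls: empty vector replicate 3 stood at 7.59 CPM, below the other 3 empty vector libraries at 8.19 to 8.32 CPM. It was 1 of 178 genes examined in this way, and chance alone sets apart about 1 in 20 groups of this size. Both Block13del libraries, at 31.4 and 30.7 CPM, lay above all 4.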

How the results depend on the processing

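The number of genes called against the empty vector rested on how the controls entered the fit. A fit of these 6 libraries alone called 389 up and 399 down, 85 and 101 of them at least 2-fold, and all 788 were shared with the 5587 of the full fit. The replicate block, in which only empty vector replicates 1 and 2 share a number with Block13del, called 4467 and 4540 (691 and 1131 at least 2-fold), close to replicates 1 and 2 as controls (4481 and 4551; 697 and 1135). Against replicates 3 and 4 alone 265 fell at least 2-fold. Calls that held in every strand and control setting included 1666 falls, 239 of them at least 2-fold. A minimum of 1 in average log2 CPM left 134 rises and 271 falls of at least 2-fold, and 267 and 507 against ARID1B WT. Leaving out 1 library gave 1623 to 3145 rises and 1414 to 3473 falls against the empty vector (251 to 398 and 285 to 802 at least 2-fold), and 2188 to 2427 and 2381 to 2515 against ARID1B WT (363 to 427 and 861 to 929).

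Same-numbered libraries share only a number in the labels. Deviations correlated at 0.07 and -0.09 between Block13del and the empty vector, 0.06 with ARID1B WT, 0.18 with Block9del and 0.02 with A457_G461del, and with 2 numbers a comparison this does not establish pairing. Against Block9del, DESeq2 called 1 gene lower, the replicate block called 153 higher and 5 lower, and leaving out 1 library left 30 to 39 higher and 0 to 0 lower (22 to 30 higher at least 2-fold). Against A457_G461del, DESeq2 called 447 higher, no filter 101, a fit of the compared groups alone 1519 higher and 1539 lower, and the replicate block 1364 and 1420. Genes higher at least 2-fold there numbered 7 with unstranded counts, 2 with no filter, 1 with that minimum, 12 in the fit of the compared groups and 10 under the block, which had 182 lower at least 2-fold. Leaving out 1 library left 58 to 92 higher and 244 to 267 lower (1 to 3 and 76 to 86 at least 2-fold).

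For genes up with ARID1B WT, the median with Block13del was 0.32 with control pairs exchanged, 0.33 with unstranded counts and 0.23 to 0.25 without 1 Block13del library, with 28 to 31.6% up and 15.3 to 15.4% down. For genes down with ARID1B WT, exchange gave 13.5% up, 15.8% down and a median of 0.03, unstranded counts gave a median of 0.11, and leaving out 1 library gave 28.6 to 31.0%, 30 to 30.5% and 0.14 to 0.15. Against replicates 3 and 4 alone, PRLR (0.02) and SMARCD2 (-0.21) changed sign. Over named genes and settings, 2655 values kept direction and side of the threshold, 241 lost the call, 27 gained it and 2 changed sign. The cause was not tested.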

Other observations

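Counts in further lists lay near or below the share over all genes, of which 19.1% rose and 20.2% fell. Of 31 WNT pathway genes, 5 rose and 6 fell against the empty vector, and of 34 TGF-beta and BMP pathway genes 4 rose and 7 fell. Of 23 ion channel subunits 5 rose and 5 fell. SCN9A, a sodium channel of pain-sensing neurons, had 16.2 and 14.3 CPM with Block13del, against 2.63, 2.293, 1.44 and 3.07 CPM with the empty vector (log2 fold change 2.67 ± 0.18, adjusted p = 1.68e-09), and both Block13del libraries lay above all controls. Its mean was 7.79 CPM with Block9del, 46.2 CPM with A457_G461del and 36.7 CPM with ARID1B WT, the order of the last 2 being the reverse of that for MMP2 and ELN.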
